A study of Arabidopsis thaliana with 14 samples.

Results

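The genes described here are 40 Arabidopsis thaliana genes that regulate, make, move or break down glucosinolates, taken by identifier from a list of pathway genes. No measured value enters that choice, although the list was drawn up with earlier results of these data known. The deposited tables list 32548 genes in all. Total RNA from 1 g of seedlings, 11 days old and raised on plates in days of 16 h of light (23 °C) and nights of 8 h (21 °C), was read as single ends of 50 nt. There were 14 libraries in 7 groups of 2. The first table held fve (homozygous for a mutation in FVE, a chromatin protein), suvh2/9 (homozygous for mutations in SUVH2 and SUVH9, which bind methylated DNA) and wild-type Col-0. The second held rrm1, the triple mutant pdp1/2/3 and the quadruple mutant pdp1/2/3;rrm1, each homozygous at every named gene, with another wild-type Col-0 pair. No source used here names the alleles or says whether replicates came from separate cultures, so p-values measure only the spread between these libraries, which may be technical.

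Levels are given as CPM, the deposited signal of a gene divided by the common library total of its table and scaled to 1e+06. The 6 libraries of the first table summed to between 21259805 and 21722950, and the 8 of the second to between 18609045 and 19534578. One count was therefore worth 0.0465 or 0.0520 CPM. A gene at 0 could still have had 0.140 or 0.156 CPM per library, from counting error alone. FVE stood at 15.1 and 15.5 CPM in fve, against 65.8 and 67.2 in Col-0, and SUVH9 at 1.13 and 0.942 CPM in suvh2/9, against 40.7 and 42.8 in Col-0, while SUVH2, at 7.27 and 7.34 CPM in suvh2/9 and 9.49 and 9.42 in Col-0, did not pass the test (adjusted p = 0.335). The genes mutated in the second table were not checked. In rrm1 replicate 1 and quadruple-mutant replicate 1, 72.8% and 90.0% of values between 0.5 and 10 lay within 0.2 of a whole number, against at least 99.8% in the other libraries. Without this pair, 25 of the 30 calls against Col-0 described below held in the quadruple mutant, 17 of 18 in pdp1/2/3 and 3 of 4 in rrm1. The lost ones were FMO GS-OX5, SOT16, MAM1, GTR2 and CYP83B1 in the quadruple mutant (adjusted p = 0.0503 to 0.183), SOT16 in pdp1/2/3 (0.0681) and MYB51 in rrm1 (0.107).

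Glucosinolates are sulfur-rich defence compounds of the cabbage order. Aliphatic ones are built from methionine whose side chain is first lengthened, and indolic ones from tryptophan, and each branch has its own MYB transcription factors, cytochromes P450 and sulfotransferases. When tissue is crushed, enzymes called myrosinases split glucosinolates into toxic products such as isothiocyanates, while atypical myrosinases do so in intact cells under attack.

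Of the 40 genes, 39 were analysed, and AOP2 was not analysed here. AOP3, a side-chain enzyme, stood at 0 in every library, and MYB122 was too low for a test in the first table. That left 37 tested genes in the first table and 38 in the second, of 19090 and 19241 genes tested in all. A gene was called when its adjusted p was below 0.05, and log2 differences are of CPM plus 1. Of the 39, 31 were called in at least 1 of the 5 comparisons of a mutant with the Col-0 of its table. The other 8 were MYB76, MYB122, CYP79B3, FMO GS-OX2, AOP3, GTR1, TGG1 and MBP2. The share of all genes called in at least 1 of the 5 is not given here. In pdp1/2/3 alone, 10.8% of all genes were called higher and 7.42% lower.

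Per length of transcript, the classical myrosinases were the most abundant members. In Col-0 of the second table TGG1 averaged 1685 ± 69.7 CPM per kb and TGG2 568 ± 43.6 (SD, n = 2). Enzyme genes followed, with MAM1 at 162 ± 2.28, CYP83A1 at 139 ± 6.14 and CYP83B1 at 107 ± 0.778. MYB28 led the regulators with 49.1 ± 2.53 CPM per kb. MYB29 averaged 26.4 ± 0.366 and MYB34 25.1 ± 1.36, a difference within their spread, and MYB51 averaged 5.14 ± 0.528, MYB76 2.75 ± 0.494 and MYB122 0.901 ± 0.0674. The lowest enzyme gene above 0 was CYP81F2, at 1.96 ± 0.0184 CPM per kb.

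Upstream sequence is shown for the 5 members with the largest called differences from Col-0, 2 that fell (MYB28 and MYB29) and 3 that rose (MYB51, CYP81F2 and MBP1). Each run is the 250 bases before the annotated start of the gene, on the strand of the gene, from the RefSeq sequence of build TAIR10.1. The gene spans are chr5:24689069-24691187 for MYB28, chr5:2446669-2448584 for MYB29, chr1:6389399-6391386 for MYB51, chr5:23187840-23189902 for CYP81F2 and chr1:19350314-19352791 for MBP1. The windows are chr5:24691188-24691437, minus strand, for MYB28 and chr5:2446419-2446668, plus strand, for MYB29. For MYB51 the window is chr1:6389149-6389398, plus strand, for CYP81F2 chr5:23187590-23187839, plus strand, and for MBP1 chr1:19352792-19353041, minus strand. Capitals mark the W-box core TTGAC, or GTCAA on the other strand, which WRKY factors are known to bind, and the palindromic G-box CACGTG, bound by many bHLH and bZIP factors. The 2 motifs share no overlapping match here.
MYB28: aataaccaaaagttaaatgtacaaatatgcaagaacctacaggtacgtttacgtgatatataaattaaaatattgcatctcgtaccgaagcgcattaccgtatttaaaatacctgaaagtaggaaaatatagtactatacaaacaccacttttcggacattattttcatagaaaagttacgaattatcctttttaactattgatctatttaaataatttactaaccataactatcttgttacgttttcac
MYB29: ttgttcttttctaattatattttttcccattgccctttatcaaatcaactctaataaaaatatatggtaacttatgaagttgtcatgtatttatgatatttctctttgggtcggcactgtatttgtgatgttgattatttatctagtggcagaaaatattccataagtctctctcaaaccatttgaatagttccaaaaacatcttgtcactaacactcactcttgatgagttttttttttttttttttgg
MYB51: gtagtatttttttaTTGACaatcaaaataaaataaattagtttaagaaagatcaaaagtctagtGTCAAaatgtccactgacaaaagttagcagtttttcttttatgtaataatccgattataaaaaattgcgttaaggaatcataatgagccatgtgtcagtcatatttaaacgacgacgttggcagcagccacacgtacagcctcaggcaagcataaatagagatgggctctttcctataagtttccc
CYP81F2: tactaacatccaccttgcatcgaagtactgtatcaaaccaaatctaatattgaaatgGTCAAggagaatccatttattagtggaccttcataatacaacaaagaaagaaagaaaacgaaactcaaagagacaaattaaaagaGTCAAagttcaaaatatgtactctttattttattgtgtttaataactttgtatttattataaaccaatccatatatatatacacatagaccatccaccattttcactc
MBP1: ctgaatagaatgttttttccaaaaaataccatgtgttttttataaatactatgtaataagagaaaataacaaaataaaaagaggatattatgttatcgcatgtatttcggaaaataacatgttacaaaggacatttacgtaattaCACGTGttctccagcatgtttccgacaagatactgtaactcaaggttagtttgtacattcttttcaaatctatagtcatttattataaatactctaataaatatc

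The MYB51 and CYP81F2 windows each held 2 W-box cores, the MBP1 window held 1 G-box, and the MYB28 and MYB29 windows held neither. A W-box core was present in 44.9% of 27443 such windows of protein-coding genes and in 13 of 39 windows of the glucosinolate genes (33.3%). The G-box was present in 6.49% of all windows and in 3 of the 39 (7.69%). These are counts of letters and say nothing of binding.

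The aliphatic branch was lower in the mutants of the second table, most widely in the quadruple mutant. Of 21 tested aliphatic genes, 18 fell in the quadruple mutant, 11 in pdp1/2/3 and 2 in rrm1, and 0 rose in any of them. Over all genes tested, the shares called lower were 7.09% in the quadruple mutant, 7.42% in pdp1/2/3 and 1.29% in rrm1, and the shares called higher 10.7%, 10.8% and 2.74%. The median log2 difference of the 21 genes was -0.50 in the quadruple mutant, -0.25 in pdp1/2/3 and -0.18 in rrm1, while the median over all genes tested was 0.0011, -0.0064 and 0.0080. Relative to the Col-0 mean, the median aliphatic gene stood at 70.1% in the quadruple mutant, 83.1% in pdp1/2/3 and 88.3% in rrm1. In these bulk samples fewer cells that make a transcript and less of it per cell cannot be told apart.

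**Figure D1:**
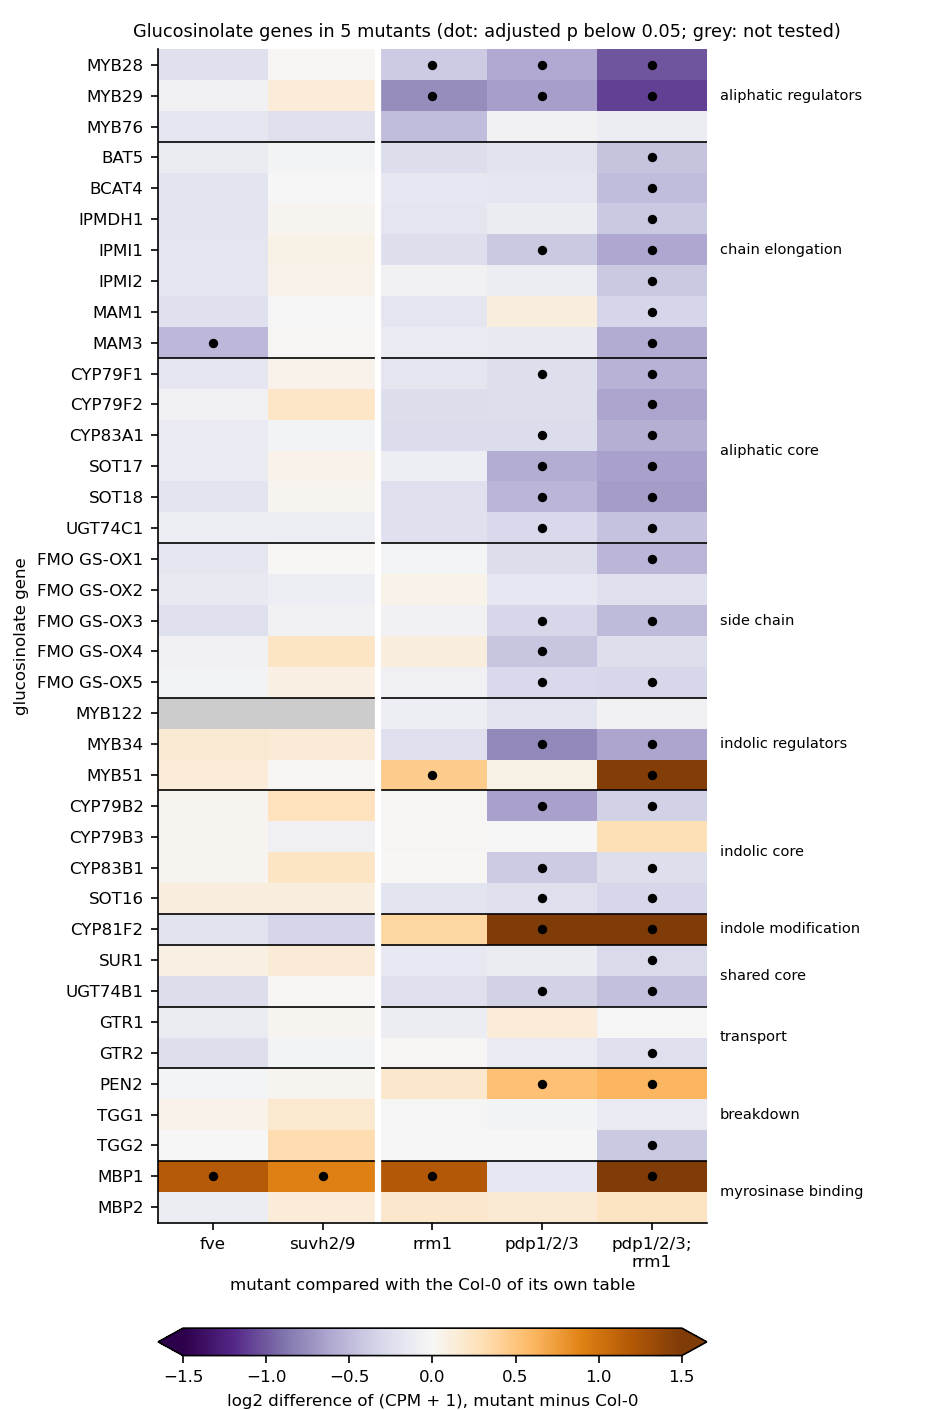
Log2 difference of CPM plus 1 (colour; violet lower and orange higher in the mutant, saturating at 1.5) for the tested glucosinolate genes (rows, by role) in each mutant against the Col-0 of its table (columns). Black dots mark an adjusted p below 0.05: the rightmost column, the quadruple mutant, has 30 of them, 26 on genes that fell, and the suvh2/9 column has 1, on MBP1.

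MYB28 and MYB29, the main activators of aliphatic glucosinolate synthesis, fell in all 3 mutants of the second table. MYB28 (AT5G61420, chromosome 5) stood at 75.2 and 72.3 CPM in rrm1, 65.4 and 61.4 in pdp1/2/3, 49.4 and 46.1 in the quadruple mutant and 101 and 93.6 in Col-0. All 6 mutant libraries lay below both Col-0 libraries, with the quadruple mutant lowest. Its log2 difference was -1.01 (SE 0.071, adjusted p = 3.83e-06) in the quadruple mutant, -0.61 (SE 0.071, adjusted p = 0.000105) in pdp1/2/3 and -0.39 (SE 0.071, adjusted p = 0.0103) in rrm1. MYB29 (AT5G07690, chromosome 5) stood at 27.1 and 26.1 CPM in rrm1, 28.8 and 28.2 in pdp1/2/3, 21.2 and 20.4 in the quadruple mutant and 46.1 and 45.2 in Col-0. Again no mutant library reached the Col-0 levels. The log2 difference of MYB29 was -1.10 (SE 0.072, adjusted p = 3.08e-06) in the quadruple mutant, -0.66 (SE 0.072, adjusted p = 6.72e-05) in pdp1/2/3 and -0.76 (SE 0.072, adjusted p = 0.000231) in rrm1. In the quadruple mutant the means of MYB28 and MYB29 were 49.2% and 45.6% of those in Col-0. The call of MYB28 in rrm1 was lost without Col-0 replicate 3 (adjusted p = 0.134) and without rrm1 replicate 2 (adjusted p = 0.0809). MYB76, the neighbour of MYB29 on chromosome 5 and a weaker activator of the same branch, was scarce and passed no test. It stood at 2.64 and 2.77 CPM in rrm1, 3.67 and 4.35 in pdp1/2/3, 3.79 and 3.91 in the quadruple mutant and 3.69 and 4.76 in Col-0, so that rrm1 lay below the other groups with a log2 difference of -0.49 (adjusted p = 0.0773).

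With all libraries in the fit, both regulators were lower in the quadruple mutant than in pdp1/2/3 and in rrm1. MYB28 differed by -0.40 (SE 0.071, adjusted p = 0.0123) from pdp1/2/3 and by -0.62 (SE 0.071, adjusted p = 0.000317) from rrm1. For MYB29 the difference was -0.44 (SE 0.072, adjusted p = 0.00821) from pdp1/2/3 and -0.34 (SE 0.072, adjusted p = 0.0137) from rrm1. Without the 2 libraries that stood apart, the MYB28 call against rrm1 held (log2 difference -0.64, adjusted p = 0.00796), and those of MYB28 against pdp1/2/3 (-0.45, adjusted p = 0.0509), MYB29 against pdp1/2/3 (-0.46, adjusted p = 0.0540) and MYB29 against rrm1 (-0.34, adjusted p = 0.135) were lost. The interaction of rrm1 with pdp1/2/3, which asks whether the effect of rrm1 differs between the 2 backgrounds, was -0.0088 (SE 0.10) for MYB28 and 0.32 (SE 0.10) for MYB29, and neither passed (adjusted p = 0.983 and adjusted p = 0.231).

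**Figure D2:**
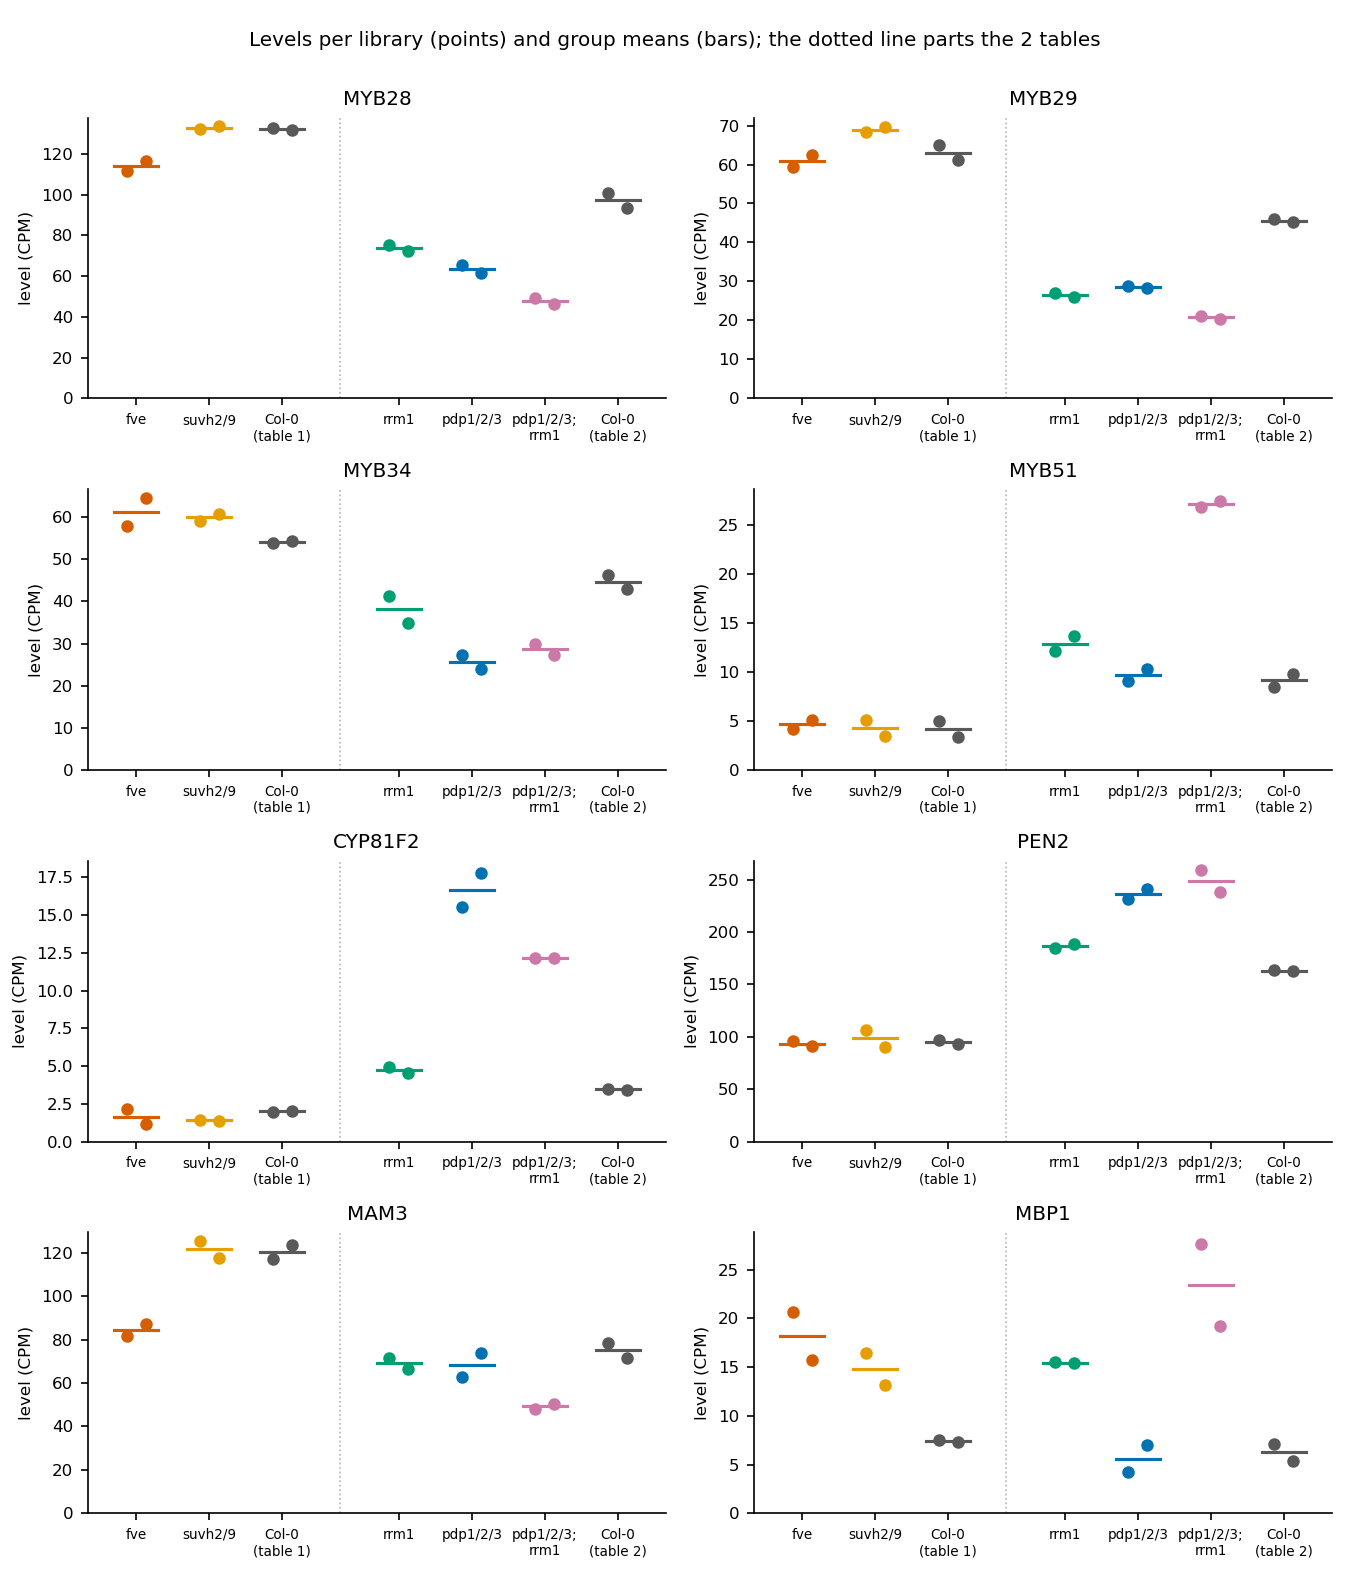
Level in CPM (vertical axes, from 0) of 8 glucosinolate genes in each library (points) with the group mean (bars), mutants left of the Col-0 of their table. MYB28 and MYB29 are lowest in the quadruple mutant, MYB51 stands at 26.8 and 27.5 CPM there, CYP81F2 is at 12.2 CPM or more in pdp1/2/3 and the quadruple mutant, and MBP1 is above Col-0 in every mutant but pdp1/2/3.

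Chain elongation, which lengthens methionine before the core pathway, was lower in the quadruple mutant across all its 7 tested genes. Their median log2 difference there was -0.44. In pdp1/2/3 IPMI1 alone of the 7 passed, and in rrm1 0 of 7 did in limma. At an unadjusted p below 0.05 there were 2 of 7 in rrm1, beside 3636 of all 19241 genes tested. Summed over the 7 genes, the level was 682 ± 34.6 CPM in the quadruple mutant and 912 ± 20.3 in Col-0 (SD, n = 2 each), or 74.8% of Col-0. In pdp1/2/3 and rrm1 the sums were 96.0% and 89.3% of Col-0, with libraries on both sides of 100% in pdp1/2/3.

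MAM3 (AT5G23020), a methylthioalkylmalate synthase that can add several rounds of elongation, stood at 71.6 and 66.5 CPM in rrm1, 62.9 and 73.8 in pdp1/2/3, 48.2 and 50.2 in the quadruple mutant and 78.7 and 71.5 in Col-0. Only the quadruple mutant lay clear of Col-0, with a log2 difference of -0.60 (SE 0.085, adjusted p = 0.000556). It was also lower there than in pdp1/2/3 (log2 difference -0.46, SE 0.085, adjusted p = 0.0148) and than in rrm1 (log2 difference -0.48, SE 0.085, adjusted p = 0.00512), and both calls were lost without the pair that stood apart (adjusted p = 0.133 and 0.145). IPMI1 (AT3G58990), a small subunit of isopropylmalate isomerase, stood at 73.9 and 56.4 CPM in rrm1, 58.6 and 56.3 in pdp1/2/3, 49.6 and 48.9 in the quadruple mutant and 80.0 and 72.5 in Col-0. Its difference was -0.62 (SE 0.10, adjusted p = 0.00174) in the quadruple mutant and -0.40 (SE 0.10, adjusted p = 0.0198) in pdp1/2/3. The remaining 5 were the aminotransferase gene BCAT4, the dehydrogenase gene IPMDH1, the second isomerase subunit IPMI2, the synthase MAM1 and the plastid keto acid transporter BAT5. In the quadruple mutant they differed from Col-0 by -0.49 (BCAT4) to -0.32 (MAM1), with adjusted p between 0.00522 and 0.0407. Of 14 alternative fits, these calls held in 13 for BCAT4, IPMDH1 and BAT5, 11 for IPMI2 and 7 for MAM1. Those of MAM3 and IPMI1 in the quadruple mutant held in all 14, and that of IPMI1 in pdp1/2/3 in 10. MAM1 had 321 and 401 CPM in pdp1/2/3, against 336 and 329.7 in Col-0, which overlap, and it was lower in the quadruple mutant than in pdp1/2/3 (log2 difference -0.43, SE 0.097, adjusted p = 0.0377), a call lost without that pair (adjusted p = 0.232). Reads of BCAT4 and IPMDH1 may include those of overlapping genes on the other strand, since no source used here gives the strand setting of the counting, and 92.2% of 50-base stretches of IPMDH1 occur once in the genome.

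The core enzymes of the aliphatic branch turn elongated methionine into the finished glucosinolate, and all 6 tested fell in the quadruple mutant, 5 of them also in pdp1/2/3. The 6 quadruple-mutant calls held in each of 14 alternative fits. In pdp1/2/3 those of SOT17 and SOT18 did, while CYP79F1 held in 6 of 14, CYP83A1 in 8 and UGT74C1 in 10. The summed level of the 6 genes was 452 ± 7.39 CPM in the quadruple mutant, 545 ± 2.48 in pdp1/2/3 and 578 ± 50.6 in rrm1, against 674 ± 16.5 in Col-0 (SD, n = 2 each). That is 67.1%, 80.8% and 85.8% of Col-0. In rrm1 0 of the 6 passed in limma, with 5 of 6 at an unadjusted p below 0.05, beside 3636 of all 19241 genes tested.

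CYP79F1 (AT1G16410) and CYP79F2 (AT1G16400), neighbours on chromosome 1 that make the first aldoxime, both fell in the quadruple mutant and lay on either side of the threshold in pdp1/2/3. CYP79F1 stood at 179.8 and 155 CPM in rrm1, 157 and 164 in pdp1/2/3, 132 and 127 in the quadruple mutant and 189 and 189 in Col-0. Every mutant library was below Col-0, and the difference was -0.54 (SE 0.075, adjusted p = 0.000437) in the quadruple mutant and -0.24 (SE 0.075, adjusted p = 0.0478) in pdp1/2/3. CYP79F2 stood at 27.9 and 28.4 CPM in rrm1, 27.2 and 29.3 in pdp1/2/3, 20.3 and 22.5 in the quadruple mutant and 34.2 and 33.1 in Col-0. Again every mutant library was below Col-0. It fell in the quadruple mutant (log2 difference -0.63, SE 0.080, adjusted p = 0.000233), also relative to pdp1/2/3 (log2 difference -0.39, SE 0.080, adjusted p = 0.0244, and 0.203 without the pair that stood apart), and in pdp1/2/3 its difference was -0.24 (adjusted p = 0.053). These 2 genes are close copies: 98.3% of 50-base stretches of CYP79F1 and 97.1% of CYP79F2 occur once in the genome, so a small part of their reads could be shared.

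CYP83A1 (AT4G13770), which oxidises the aldoxime, stood at 238 and 205 CPM in rrm1, 218 and 223 in pdp1/2/3, 173 and 184 in the quadruple mutant and 274 and 257 in Col-0. The difference was -0.57 (SE 0.077, adjusted p = 0.000361) in the quadruple mutant and -0.27 (SE 0.077, adjusted p = 0.031) in pdp1/2/3. SOT17 (AT1G18590) and SOT18 (AT1G74090), the sulfotransferases of the last core step, had the largest differences among the core genes in both genotypes. SOT17 stood at 35.7 and 31.7 CPM in rrm1, 25.9 and 21.8 in pdp1/2/3, 21.6 and 23.4 in the quadruple mutant and 38.4 and 33.6 in Col-0, with differences of -0.65 (SE 0.10, adjusted p = 0.00104) in the quadruple mutant and -0.58 (SE 0.10, adjusted p = 0.00202) in pdp1/2/3. For SOT18 the levels were 71.2 and 63.8 CPM in rrm1, 57.9 and 52.2 in pdp1/2/3, 49.2 and 49.3 in the quadruple mutant and 80.4 and 78.2 in Col-0. Its difference was -0.68 (SE 0.076, adjusted p = 0.00011) in the quadruple mutant and -0.52 (SE 0.076, adjusted p = 0.000534) in pdp1/2/3. In rrm1, SOT17 overlapped Col-0 and SOT18 lay below it without passing (adjusted p = 0.117). UGT74C1 (AT2G31790), a glucosyltransferase, stood at 61.7 and 58.8 CPM in rrm1, 60.9 and 53.0 in pdp1/2/3, 51.4 and 50.8 in the quadruple mutant and 69.5 and 71.3 in Col-0, and differed by -0.45 (SE 0.075, adjusted p = 0.00152) in the quadruple mutant and -0.30 (SE 0.075, adjusted p = 0.0151) in pdp1/2/3. UGT74C1, SOT18, FMO GS-OX5, GTR1 and GTR2 also overlap other annotated genes. For SOT18 and FMO GS-OX5 this includes a gene on the same strand, so their reads could be shared whatever the strand setting.

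**Figure D3:**
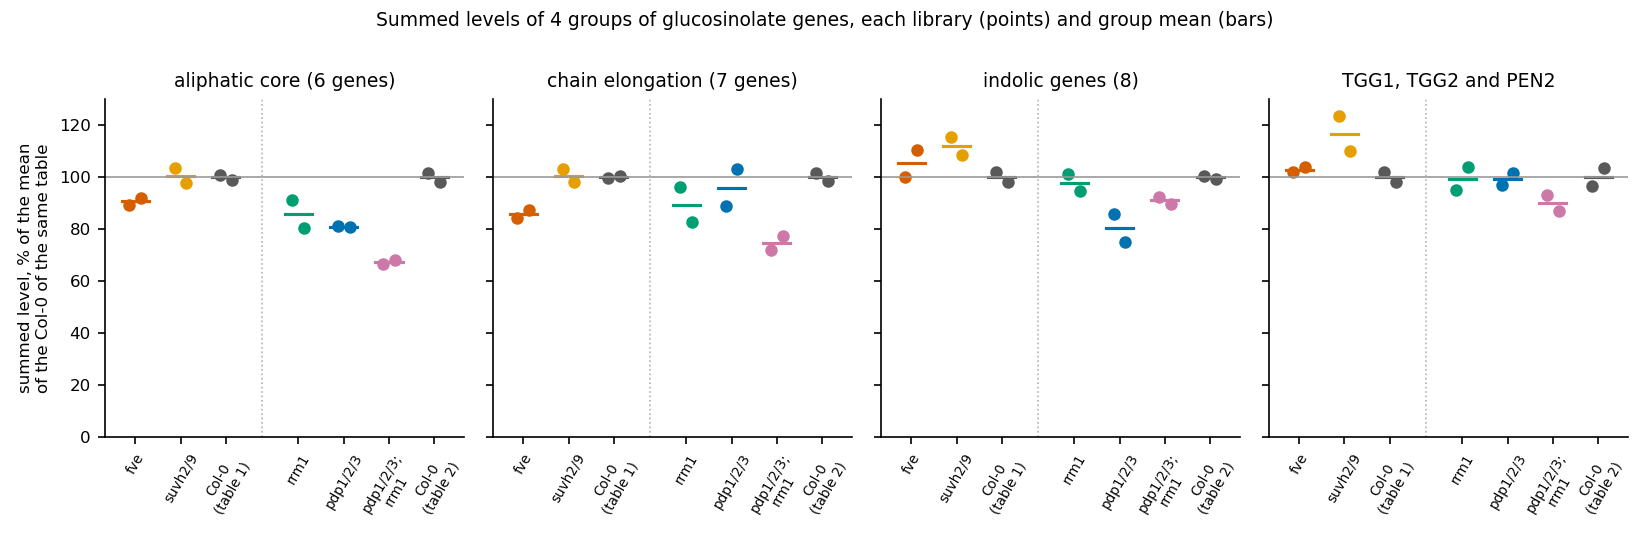
Summed level of 4 groups of glucosinolate genes in each library (points) and group mean (bars), as a percentage of the mean of the Col-0 of the same table (vertical axis, from 0). The aliphatic core sum is 67.1% in the quadruple mutant and 80.8% in pdp1/2/3, the indolic sum is lowest in pdp1/2/3 at 80.4%, and the mean breakdown sum, which TGG1 and TGG2 dominate, lies between 90.0% and 117% in the 5 mutants.

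Side-chain oxidation by the flavin monooxygenases FMO GS-OX1 to GS-OX5 was lower for 3 of 5 genes in the quadruple mutant and 3 of 5 in pdp1/2/3, with 2 in common. FMO GS-OX3 (AT1G62560) stood at 39.2 and 33.5 CPM in rrm1, 30.4 and 29.6 in pdp1/2/3, 25.8 and 26.8 in the quadruple mutant and 37.7 and 37.4 in Col-0. It fell in both, with a difference of -0.50 (SE 0.083, adjusted p = 0.00163) in the quadruple mutant and -0.31 (SE 0.083, adjusted p = 0.0214) in pdp1/2/3. FMO GS-OX1 (AT1G65860) stood at 28.5 and 24.3 CPM in rrm1, 21.7 and 23.2 in pdp1/2/3, 17.5 and 19.4 in the quadruple mutant and 28.5 and 25.5 in Col-0. Its call was in the quadruple mutant only, at -0.52 (SE 0.098, adjusted p = 0.00341), and in pdp1/2/3 the difference was -0.25 (adjusted p = 0.098). FMO GS-OX5 fell in both genotypes, with differences of -0.31 in the quadruple mutant and -0.30 in pdp1/2/3. FMO GS-OX4 passed in pdp1/2/3 (log2 difference -0.43, adjusted p = 0.0109) and not in the quadruple mutant (log2 difference -0.24, adjusted p = 0.12), but the direct comparison of the quadruple mutant with pdp1/2/3 did not pass either (log2 difference 0.19, adjusted p = 0.396). FMO GS-OX2 passed in neither, at -0.23 in the quadruple mutant and -0.16 in pdp1/2/3. Of 14 alternative fits, the pdp1/2/3 call held in 10 for FMO GS-OX3, 13 for FMO GS-OX4 and 11 for FMO GS-OX5. In the quadruple mutant it held in 14 for FMO GS-OX3, 13 for FMO GS-OX1 and 10 for FMO GS-OX5.

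Indolic genes moved in both directions. In pdp1/2/3, 4 of 8 fell and 1 rose, and in the quadruple mutant 4 fell and 2 rose. The 50.0% that fell in each stand beside 7.42% and 7.09% of all genes, and the 12.5% and 25% that rose beside 10.8% and 10.7%. In rrm1 1 rose, MYB51 (12.5%, beside 2.74%). MYB34 (AT5G60890), an activator of indolic synthesis, stood at 41.3 and 34.9 CPM in rrm1, 27.3 and 24.04 in pdp1/2/3, 29.8 and 27.4 in the quadruple mutant and 46.4 and 43.0 in Col-0. It fell in pdp1/2/3 (log2 difference -0.78, SE 0.097, adjusted p = 0.000173) and in the quadruple mutant (log2 difference -0.62, SE 0.097, adjusted p = 0.000993), and the test between the quadruple mutant and pdp1/2/3 did not pass (log2 difference 0.15, SE 0.097, adjusted p = 0.493). MYB51 (AT1G18570, chromosome 1), the indolic activator best known from responses to microbes, went the other way. It stood at 12.1 and 13.7 CPM in rrm1, 9.07 and 10.3 in pdp1/2/3, 26.8 and 27.5 in the quadruple mutant and 8.51 and 9.85 in Col-0. Both quadruple-mutant libraries lay above every other library, and pdp1/2/3 overlapped Col-0. The log2 difference from Col-0 was 1.47 (SE 0.11, adjusted p = 4.14e-06) in the quadruple mutant, 0.45 (SE 0.11, adjusted p = 0.0348) in rrm1 and 0.071 (adjusted p = 0.701) in pdp1/2/3. In rrm1 the call was lost without any 1 of the Col-0 or rrm1 libraries, with adjusted p of 0.256 without Col-0 replicate 3, 0.0757 without Col-0 replicate 4, 0.0786 without rrm1 replicate 1 and 0.186 without rrm1 replicate 2. MYB122, the third activator, had 1.298 and 1.23 CPM in rrm1, 1.36 and 0.880 in pdp1/2/3, 1.33 and 1.303 in the quadruple mutant and 1.33 and 1.48 in Col-0, with no call.

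For MYB51 the effect of rrm1 was larger in the pdp1/2/3 background than in Col-0. The quadruple mutant exceeded pdp1/2/3 by 1.40 (SE 0.11, adjusted p = 6.04e-05) and rrm1 by 1.02 (SE 0.11, adjusted p = 0.000176), and both calls held without the pair that stood apart (adjusted p = 0.00402 and 0.0113). The interaction was 0.95 (SE 0.15, adjusted p = 0.0264), the only one called among the 38 tested members, where 0.301% of all genes were called in either direction. This call was lost without Col-0 replicate 3 (adjusted p = 0.0786), Col-0 replicate 4 (0.0859), rrm1 replicate 1 (0.0605), rrm1 replicate 2 (0.0648) or quadruple-mutant replicate 1 (0.0766), with an interaction of 0.85 to 1.04 on the log2 scale in these fits. Without both libraries that stood apart, rrm1 replicate 1 and quadruple-mutant replicate 1, it was 0.88 (adjusted p = 0.148).

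Of the 4 enzymes of the indolic core, the same 3 fell in pdp1/2/3 and in the quadruple mutant. CYP79B2 (AT4G39950) makes indole-3-acetaldoxime and stood at 69.2 and 58.1 CPM in rrm1, 41.6 and 37.6 in pdp1/2/3, 50.0 and 48.8 in the quadruple mutant and 62.6 and 63.1 in Col-0. The lowest libraries were those of pdp1/2/3. The log2 difference was -0.65 (SE 0.086, adjusted p = 0.000248) in pdp1/2/3 and -0.34 (SE 0.086, adjusted p = 0.0173) in the quadruple mutant. Its paralog CYP79B3 passed no test, with 48.03 and 45.5 CPM in rrm1, 51.7 and 40.7 in pdp1/2/3, 57.1 and 56.4 in the quadruple mutant and 45.1 and 47.1 in Col-0. The quadruple-mutant libraries of CYP79B3 were above those of Col-0, at a difference of 0.29 (adjusted p = 0.0536). CYP83B1 (AT4G31500), the next enzyme, stood at 209 and 199 CPM in rrm1, 167 and 143 in pdp1/2/3, 177 and 167 in the quadruple mutant and 204 and 202 in Col-0, with a difference of -0.39 (SE 0.077, adjusted p = 0.00372) in pdp1/2/3 and -0.24 (SE 0.077, adjusted p = 0.0484) in the quadruple mutant. SOT16, the sulfotransferase of the indolic branch, fell in pdp1/2/3 (log2 difference -0.23, adjusted p = 0.0453) and in the quadruple mutant (log2 difference -0.31, adjusted p = 0.0101). In pdp1/2/3 the calls of CYP79B2 and CYP83B1 held in all 14 alternative fits, and that of SOT16 in 5. In the quadruple mutant the call of SOT16 held in 12 of 14, that of CYP79B2 in 10 and that of CYP83B1 in 5.

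CYP81F2 (AT5G57220, chromosome 5), which hydroxylates the indole ring and is required for PEN2-dependent defence, gave the smallest adjusted p of all members against Col-0. It stood at 4.94 and 4.56 CPM in rrm1, 15.5 and 17.8 in pdp1/2/3, 12.2 and 12.2 in the quadruple mutant and 3.49 and 3.44 in Col-0. The pdp1/2/3 libraries were highest, the quadruple mutant came next, and both lay far above Col-0. The log2 difference was 1.98 (SE 0.11, adjusted p = 1.77e-06) in pdp1/2/3 and 1.56 (SE 0.11, adjusted p = 3.76e-06) in the quadruple mutant. In rrm1 both libraries were above Col-0, at 0.36 (adjusted p = 0.0847). The difference of the quadruple mutant from pdp1/2/3 was -0.42 (adjusted p = 0.0627) and the interaction -0.78 (adjusted p = 0.0588), so neither passed.

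Enzymes shared by both branches fell in part. UGT74B1 (AT1G24100), the main glucosyltransferase, stood at 72.4 and 70.1 CPM in rrm1, 72.5 and 59.0 in pdp1/2/3, 60.3 and 60.1 in the quadruple mutant and 86.4 and 80.3 in Col-0. All mutant libraries were below Col-0, and it fell in the quadruple mutant (log2 difference -0.46, SE 0.089, adjusted p = 0.00387) and in pdp1/2/3 (log2 difference -0.35, SE 0.089, adjusted p = 0.0182). SUR1, the C-S lyase, fell in the quadruple mutant (log2 difference -0.29, adjusted p = 0.0108) and did not pass in pdp1/2/3 (log2 difference -0.12, adjusted p = 0.271). Of the transporters, GTR2 fell in the quadruple mutant (log2 difference -0.23, adjusted p = 0.0259). GTR1 passed nowhere, and its 2 pdp1/2/3 libraries, at 60.7 and 39.5 CPM, lay on either side of the Col-0 libraries, at 45.6 and 43.7 CPM. Of 14 alternative fits, the quadruple-mutant call held in 13 for UGT74B1, 11 for SUR1 and 9 for GTR2. The pdp1/2/3 call of UGT74B1 held in 9.

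Among the genes of breakdown, the atypical myrosinase PEN2 was higher in pdp1/2/3 and the quadruple mutant and the classical TGG1 passed no test. PEN2 (AT2G44490) stood at 185 and 189 CPM in rrm1, 232 and 241 in pdp1/2/3, 259.6 and 238 in the quadruple mutant and 163 and 162 in Col-0. All mutant libraries lay above Col-0. It rose in pdp1/2/3 (log2 difference 0.54, SE 0.065, adjusted p = 0.000136) and in the quadruple mutant (log2 difference 0.61, SE 0.065, adjusted p = 7.65e-05), and in rrm1 the difference was 0.20 (adjusted p = 0.116). TGG1 stood at 3041 and 3261 CPM in rrm1, 3057 and 3132 in pdp1/2/3, 3020.4 and 2835 in the quadruple mutant and 3097 and 3283 in Col-0, with log2 differences from Col-0 between -0.12 and -0.018. TGG2 stood at 1026 and 1192 CPM in rrm1, 1052 and 1172 in pdp1/2/3, 876 and 819 in the quadruple mutant and 1058 and 1179.8 in Col-0. It fell in the quadruple mutant (log2 difference -0.40, SE 0.095, adjusted p = 0.0126), also relative to pdp1/2/3 (log2 difference -0.39, SE 0.095, adjusted p = 0.0492, and 0.145 without the pair that stood apart).

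MBP1 (AT1G52040, chromosome 1), a myrosinase-binding protein of the jacalin lectin type, was the member called in most comparisons with Col-0, in 4 of 5. In the second table it stood at 15.5 and 15.4 CPM in rrm1, 4.25 and 6.996 in pdp1/2/3, 27.6 and 19.2 in the quadruple mutant and 7.14 and 5.41 in Col-0. The first table had 20.7 and 15.7 CPM in fve, 16.5 and 13.2 in suvh2/9 and 7.47 and 7.31 in Col-0. In both tables every mutant library was above Col-0 except those of pdp1/2/3, which overlapped it. The log2 difference was 1.18 (SE 0.13, adjusted p = 0.000756) in fve, 0.91 (SE 0.13, adjusted p = 0.00658) in suvh2/9, 1.19 (SE 0.20, adjusted p = 0.0073) in rrm1 and 1.74 (SE 0.20, adjusted p = 0.000126) in the quadruple mutant. It was -0.16 (adjusted p = 0.646) in pdp1/2/3, and the quadruple mutant exceeded pdp1/2/3 by 1.89 (SE 0.20, adjusted p = 0.000579), a call that held without the pair that stood apart (adjusted p = 0.0172). The suvh2/9 call was lost without Col-0 replicate 1 (adjusted p = 0.0832) or Col-0 replicate 2 (0.0980), and the rrm1 call without Col-0 replicate 4 (0.0754). With no filter on low genes the calls in fve, suvh2/9 and rrm1 were all lost, at adjusted p of 0.0551, 0.222 and 0.0696. MBP2, its neighbour, passed nowhere and stood at 4.88 and 6.88 CPM in rrm1, 4.72 and 6.74 in pdp1/2/3, 6.51 and 5.63 in the quadruple mutant and 4.92 and 4.98 in Col-0. Of 50-base stretches of MBP1, 98.5% occur once in the genome.

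Counted over all members, 26 of 38 (68.4%) fell and 4 (10.53%) rose in the quadruple mutant, and 16 (42.1%) fell and 2 (5.26%) rose in pdp1/2/3. In rrm1, 2 (5.26%) fell and 2 (5.26%) rose, beside 1.29% and 2.74% of all genes. The shares that fell in the quadruple mutant and in pdp1/2/3 lay above the 7.09% and 7.42% of all genes, while the shares that rose did not exceed the 10.7% and 10.8% of all genes. These 3 comparisons share the same 2 Col-0 libraries. The shares of all genes belong to the fit with all libraries, and those of the fits that follow are not given here. Without Col-0 replicate 3 the quadruple mutant had 17 calls in place of 30 and pdp1/2/3 had 9 in place of 18, and without Col-0 replicate 4 or pdp1/2/3 replicate 2, pdp1/2/3 had 11. In rrm1 there were 2 calls in place of 4 without Col-0 replicate 3, Col-0 replicate 4 or rrm1 replicate 2, and 10 with only rrm1 and Col-0 in the fit. Without both libraries that stood apart there were 26, 17 and 4 calls in the quadruple mutant, pdp1/2/3 and rrm1.

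Compared directly, the quadruple mutant had 6 members lower and 2 higher than pdp1/2/3, where 1.53% and 1.43% of all genes were called. The 6 were MYB28, MYB29, MAM1, MAM3, CYP79F2 and TGG2, and the 2 were MYB51 and MBP1. The call count was 4 without quadruple-mutant replicate 1, 5 without quadruple-mutant replicate 2 or pdp1/2/3 replicate 2, and 2, MYB51 and MBP1, without the pair that stood apart. Against rrm1 it had 16 lower and 3 higher, with 2.5% and 5.46% of all genes called. The 3 were MYB51, CYP81F2 and PEN2, and 12 of the 16 were aliphatic. That count rests on rrm1 replicate 1, the library that stood apart: 5 members were called without it, 10 without quadruple-mutant replicate 2, and 4 without the pair that stood apart. Of the 19, MYB28, MYB51 and CYP81F2 held without that pair, and the other 16 had adjusted p of 0.0607 to 0.494.

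**Figure D4:**
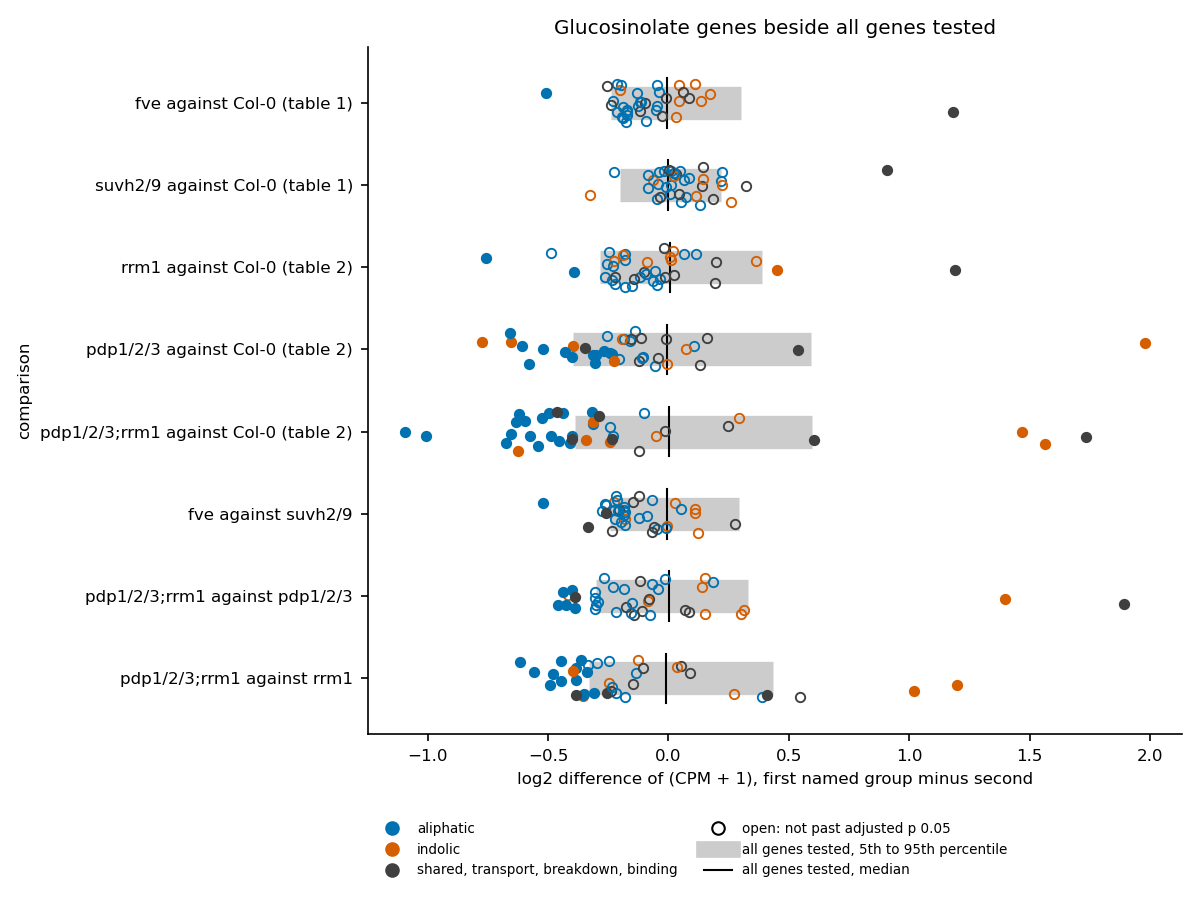
Log2 difference of CPM plus 1 (horizontal axis) of each tested glucosinolate gene (circles, filled where adjusted p was below 0.05) in 8 comparisons (rows), beside the range from the 5th to the 95th percentile of all genes tested (grey) and their median (line). Aliphatic genes (blue) lie left of the all-gene median in the quadruple mutant, and MYB51 (1.47), CYP81F2 (1.56) and MBP1 (1.74) stand to the right there.

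In the first table few members passed with all libraries in the fit. In fve 1 rose, MBP1, and 1 fell, MAM3, of 37 tested, beside 1.12% (higher) and 0.77% (lower) over all genes. In suvh2/9 only MBP1 was called, beside 0.388% of all genes called higher and 0.183% lower, and 2 members were called without suvh2/9 replicate 2. MAM3 stood at 81.9 and 87.1 CPM in fve, 126 and 118 in suvh2/9 and 117 and 124 in Col-0. The fve libraries were the lowest, with a difference of -0.51 (SE 0.060, adjusted p = 0.00112) from Col-0 and -0.52 (SE 0.060, adjusted p = 0.000898) from suvh2/9, and suvh2/9 overlapped Col-0.

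The other aliphatic genes leaned lower in fve without passing in the fit with all libraries. All 21 had a negative log2 difference, where 52.0% of all genes did, with a median of -0.17 beside -0.0064 over all genes, and their summed level was 2484 ± 47.2 CPM in fve and 2817 ± 0.0886 in Col-0 (SD, n = 2 each), or 88.2% of Col-0. At an unadjusted p below 0.05 there were 12 of the 21 in fve, beside 2675 of all 19090 genes tested. In suvh2/9 limma called 0 of the 21, with 2 at an unadjusted p below 0.05, beside 1267 of all 19090 genes tested. The median of the 21 there was 0.012 and the sum 101% of Col-0. With suvh2/9 left out of the fit, 9 members were called in fve. They were the aliphatic genes MAM3, MAM1, BCAT4, IPMDH1, MYB28 and FMO GS-OX3, together with UGT74B1, GTR2 and MBP1. The shares over all genes given above for fve belong to the fit with all libraries, and the share in this fit is not given here. Between fve and suvh2/9 directly, 3 members were lower in fve and 0 higher, where 0.843% and 1.22% of all genes were called. They were MAM3, TGG2 (log2 difference -0.33, SE 0.072, adjusted p = 0.0371) and UGT74B1 (log2 difference -0.26, SE 0.058, adjusted p = 0.0473). UGT74B1 stood at 75.1 and 74.4 CPM in fve, 93.2 and 86.0 in suvh2/9 and 89.5 and 89.2 in Col-0. Leaving out 1 library at a time gave 1 to 6 calls there: 6 without suvh2/9 replicate 2 and 1 without any other.

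With all libraries in the fit, the regulators of the first table passed no test. MYB28 stood at 111 and 117 CPM in fve, 132 and 133 in suvh2/9 and 133 and 132 in Col-0, and its difference in fve was -0.21 (adjusted p = 0.0723) in that fit. Once suvh2/9 was left out of the fit, MYB28 was called in fve. MYB29 stood at 59.3 and 62.3 CPM in fve, 68.3 and 69.6 in suvh2/9 and 64.9 and 61.0 in Col-0, and MYB34 at 57.8 and 64.6 CPM in fve, 59.0 and 60.8 in suvh2/9 and 54.0 and 54.4 in Col-0. The fve and suvh2/9 libraries of MYB34 lay above Col-0, with differences of 0.17 (adjusted p = 0.264) and 0.14 (adjusted p = 0.759). MYB51 was low throughout, at 4.22 and 5.08 CPM in fve, 5.07 and 3.49 in suvh2/9 and 4.96 and 3.42 in Col-0, and MYB76 stood at 3.57 and 4.20 CPM in fve, 3.43 and 3.999 in suvh2/9 and 4.45 and 4.55 in Col-0. MYB122 had 0.603 and 0.415 CPM in fve, 0.751 and 0.565 in suvh2/9 and 0.734 and 0.703 in Col-0, too low for a test.

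No core or side-chain gene of the first table passed against Col-0 with all libraries in the fit. The side-chain gene FMO GS-OX3 and the shared core gene UGT74B1 were called in fve once suvh2/9 was left out. CYP79F1 stood at 278 and 291 CPM in fve, 344 and 319.5 in suvh2/9 and 325 and 317 in Col-0, and CYP79F2 at 34.3 and 32.4 CPM in fve, 39.5 and 40.9 in suvh2/9 and 33.6 and 35.3 in Col-0. CYP83A1 had 342 and 348 CPM in fve, 385 and 349.6 in suvh2/9 and 383 and 372 in Col-0. In CYP79F1 and CYP83A1 the fve libraries were the lowest (adjusted p = 0.167 and adjusted p = 0.349 against Col-0), and in CYP79F2 the suvh2/9 libraries were the highest (adjusted p = 0.392). SOT17 had 48.5 and 49.4 CPM in fve, 58.1 and 53.5 in suvh2/9 and 54.2 and 52.3 in Col-0, and SOT18 85.9 and 91.8 CPM in fve, 101 and 105 in suvh2/9 and 100.03 and 103 in Col-0. UGT74C1 had 98.1 and 99.0 CPM in fve, 98.1 and 100.33 in suvh2/9 and 107 and 104 in Col-0. In SOT17 and SOT18 fve was again the lowest group, while UGT74C1 was highest in Col-0. IPMI1 had 98.8 and 104 CPM in fve, 128 and 114 in suvh2/9 and 115 and 116 in Col-0. FMO GS-OX3 had 72.5 and 71.0 CPM in fve, 84.9 and 78.2 in suvh2/9 and 82.6 and 86.0 in Col-0, and FMO GS-OX1 42.2 and 42.0 CPM in fve, 44.7 and 51.4 in suvh2/9 and 47.95 and 47.3 in Col-0. In these 3 genes both fve libraries lay below Col-0.

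Of the indolic genes, CYP79B2 stood at 48.9 and 62.4 CPM in fve, 69.3 and 60.7 in suvh2/9 and 56.0 and 52.0 in Col-0, and CYP79B3 at 46.2 and 56.8 CPM in fve, 47.3 and 47.4 in suvh2/9 and 48.3 and 51.0 in Col-0. CYP83B1 had 179 and 192 CPM in fve, 219 and 202 in suvh2/9 and 186 and 174 in Col-0, and CYP81F2 2.13 and 1.20 CPM in fve, 1.45 and 1.36 in suvh2/9 and 1.97 and 2.06 in Col-0. The suvh2/9 libraries of CYP79B2 and CYP83B1 lay above Col-0 and those of CYP81F2 below it, and 0 of these passed. PEN2 had 96.0 and 91.3 CPM in fve, 106 and 90.7 in suvh2/9 and 97.2 and 93.5 in Col-0, with all groups overlapping. TGG1 had 2667 and 2738 CPM in fve, 3093 and 2804 in suvh2/9 and 2626 and 2555 in Col-0, and TGG2 985 and 985 CPM in fve, 1341 and 1149.7 in suvh2/9 and 1028 and 958 in Col-0. Both suvh2/9 libraries of TGG2 were above Col-0, at 0.32 (adjusted p = 0.107).

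The wild type itself differed between the tables. All 21 tested aliphatic genes were lower in Col-0 of the second table than in Col-0 of the first, with ratios from 0.445 (FMO GS-OX3) to 0.982 (FMO GS-OX5) and a median of 0.704. Over 18810 genes tested in both tables the median ratio was 0.972, and 54.8% of genes were below 1. MYB51 went the other way, with a ratio of 2.19, as did CYP81F2 at 1.72 and PEN2 at 1.71. The tables were normalised separately and no test was made across them, so levels are compared with the Col-0 of the same table only. Of the 30 members called in the quadruple mutant, Col-0 of the second table differed from Col-0 of the first in the same direction for 25, among them the 18 aliphatic ones, MYB51, CYP81F2 and PEN2. It differed in the opposite direction for CYP79B2, CYP83B1, SOT16, TGG2 and MBP1. The matching share among all genes called in the quadruple mutant is not given here. A link between the Col-0 differences and the mutant differences was not tested.

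**Figure D5:**
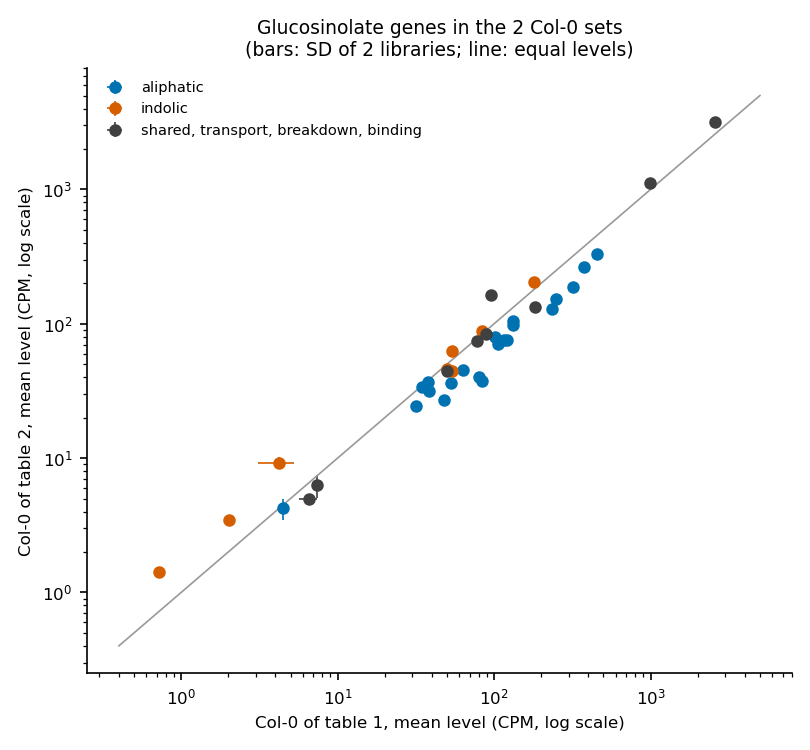
Mean level of each glucosinolate gene in Col-0 of the second table (vertical axis, CPM, log scale) against Col-0 of the first table (horizontal axis, CPM, log scale), with SD of 2 libraries as bars and the line of equal levels. Aliphatic genes (blue) lie below the line, at a median ratio of 0.704, and MYB51, at 2.19, lies above it.

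Other genes of the pathway came from a list of 35, of which 31 were tested in each table. In the quadruple mutant 3 rose and 5 fell, in pdp1/2/3 3 rose and 2 fell, in rrm1 1 rose and 1 fell, in fve 1 rose and 2 fell, and in suvh2/9 1 rose. The share that rose was 9.68% in the quadruple mutant and in pdp1/2/3, beside 10.7% and 10.8% of all genes, and the share that fell 16.1% and 6.45%, beside 7.09% and 7.42%. Of these 4 shares, the 16.1% alone was above that over all genes. In rrm1 3.23% rose and 3.23% fell, beside 2.74% and 1.29%, in fve 3.23% rose and 6.45% fell, beside 1.12% and 0.77%, and in suvh2/9 3.23% rose, beside 0.388%. Their median log2 difference was -0.14 in the quadruple mutant, -0.12 in pdp1/2/3 and 0.016 in rrm1. IGMT1, which methylates the product of CYP81F2, rose in the quadruple mutant (log2 difference 0.88, SE 0.12, adjusted p = 0.000297), in pdp1/2/3 (log2 difference 0.40, SE 0.12, adjusted p = 0.0302) and in rrm1 (log2 difference 0.74, SE 0.12, adjusted p = 0.00488), and fell in fve (log2 difference -0.74, SE 0.15, adjusted p = 0.0264). Its levels were 14.5 and 14.9 CPM in rrm1, 10.8 and 12.1 in pdp1/2/3, 15.3 and 17.4 in the quadruple mutant and 9.39 and 7.53 in Col-0. GSTU13, a glutathione transferase of the PEN2 pathway, rose in the quadruple mutant (log2 difference 0.30, SE 0.073, adjusted p = 0.0149) and in pdp1/2/3 (log2 difference 0.39, SE 0.073, adjusted p = 0.00285). SDI2, a repressor linked to sulfur shortage, rose in pdp1/2/3 (log2 difference 0.90, SE 0.15, adjusted p = 0.00173) and was also called higher in the quadruple mutant. MYC4, a bHLH partner of the MYB activators, fell in the quadruple mutant (log2 difference -0.40, SE 0.094, adjusted p = 0.0117) and in pdp1/2/3 (log2 difference -0.42, SE 0.094, adjusted p = 0.0083). ESP, which diverts breakdown from isothiocyanates, fell in rrm1 (log2 difference -0.44, SE 0.10, adjusted p = 0.0378) and was also called lower in the quadruple mutant. ESM1, which favours isothiocyanates, was at 1512 and 1623 CPM in fve, 2449.6 and 2401 in suvh2/9 and 815 and 782 in Col-0. It rose in suvh2/9 (log2 difference 1.60, SE 0.058, adjusted p = 2.4e-08) and in fve (log2 difference 0.97, SE 0.058, adjusted p = 7.9e-06), and suvh2/9 was the highest group. SDI1, a relative of SDI2, fell in fve (log2 difference -0.85, SE 0.19, adjusted p = 0.0433).

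Genes of the jasmonate response, which is known to raise glucosinolate synthesis, rose for 6 of 12 (50.0%) in the quadruple mutant and 5 of 12 (41.7%) in pdp1/2/3, beside 10.7% and 10.8% of all genes, and 0 fell in either. In rrm1 1 rose, VSP1 (8.33%, beside 2.74%). Their summed level was 1407 to 1614 CPM in the quadruple mutant, 1014 to 1278 in pdp1/2/3 and 1252 to 1374 in rrm1, against 1176 to 1227 in Col-0. Markers of guard and myrosin cells, 6 genes, summed to 126 to 128 CPM in the quadruple mutant, 160.0 to 168 in pdp1/2/3 and 123 to 124 in rrm1, against 127 to 138 in Col-0, and in pdp1/2/3 KAT1 rose and SLAC1 fell. Each is 16.7% of the list, beside 10.8% of all genes called higher and 7.42% lower. Root markers (14 genes) summed to 702 to 757 CPM in the quadruple mutant, 661 to 702 in pdp1/2/3 and 887 to 893 in rrm1, against 759 to 782 in Col-0, and in pdp1/2/3 1 of them, TIP1;1, fell (7.14%, beside 7.42% of all genes). Seed storage genes (8) summed to 10.7 to 21.7 CPM in the quadruple mutant and 11.1 to 30.3 in rrm1, against at most 0.646 in every other library, and 1 of the 2 that could be tested, CRA1, rose in the quadruple mutant and in rrm1 (beside 10.7% and 2.74% of all genes). Photosynthesis genes (12) summed to 72420 to 82106 CPM over all libraries of the second table and 75699.7 to 80242 over those of the first. RBCS1B alone of them was called against Col-0, lower in pdp1/2/3 (8.33%, beside 7.42% of all genes). In the first table the guard and myrosin cell markers summed to 128 to 148 CPM, the root markers to 727 to 835 and the jasmonate genes to 689.8 to 855. Only the root marker NRT2.1 was called there against Col-0, higher in fve (7.14% of the root markers, beside 1.12% of all genes). The part of each of these in the glucosinolate results was not tested.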

How the data were processed

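RNA-seq libraries of 7 genotype groups, 2 each, were deposited as 2 tables of signal values per gene. The authors' signal values looked like edgeR pseudo-counts, adjusted counts on a shared library size, from the values themselves; HISAT2, featureCounts, edgeR and build TAIR10 are named in the submitters' processing notes, with no settings or versions. Whole reads could not be recovered, so no count test was used. Each value was divided by the common (geometric mean) total of its table, 21485094 or 19220337, and multiplied by 1e+06 to give CPM, so the deposited normalisation was kept.

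Genes that reached 1 CPM in 2 or more libraries were tested on log2(CPM + 1), a scale that understates changes of low genes, with limma 3.58.1 in R 4.3.3. Each table had 1 fit over all its groups, with empirical Bayes moderation and a trend, and p-values were two-sided and adjusted by Benjamini and Hochberg over all genes tested in the table. This is the adjusted p printed throughout, with a threshold of 0.05. The first table left 3 residual and 8.499 prior degrees of freedom, and the second 4 and 7.821. The procedure was tested on simulated data. No test was made across the tables, whose Col-0 libraries are separate. Replicates of each group differed by more than sampling noise (chi-square per gene 2.719 to 6.729), so none were merged. Replicate numbers are not said to mark pairs or a shared batch, and they were not used in the main fit.

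The members, the gene lists and the rule for naming genes were chosen with earlier results of these data known. Full statistics were given for the 20 members with the smallest adjusted p against Col-0, ranges for the other 11 called, levels for the MYB regulators and first enzymes in any case, and up to 3 other pathway genes per comparison by adjusted p. Gene positions, lengths and upstream sequence came from the RefSeq annotation of TAIR10.1. Intervals for a count of 0 cover counting error only and use 3 counts. Alternatives tried were a pseudocount of 0.1, no filter, no trend, only the groups compared, median-of-ratios scaling, a replicate block, and leaving out libraries.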

Additional observations from a re-analysis of the deposited data

Results flagged for a closer look

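MYB51 was singled out because the effect of rrm1 on it differed between backgrounds. The quadruple mutant had 26.8 and 27.5 CPM and pdp1/2/3 had 9.07 and 10.3, while rrm1 had 12.1 and 13.7 and Col-0 8.51 and 9.85. The effect of rrm1 in pdp1/2/3 minus its effect in Col-0 was 0.95 on the log2 scale of CPM plus 1 (SE 0.15, adjusted p = 0.0264 in limma). It stayed between 0.85 and 1.04 in the 13 alternatives run for it, with adjusted p from 0.0251 to 0.205. The call was lost with no filter (adjusted p = 0.205), with no trend (0.148), without 1 of 5 libraries (0.0605 to 0.0859) and without both libraries that stood apart (0.148).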

How the results depend on the processing

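Of 55 calls of a member against the Col-0 of its table, 27 held in every alternative run (12 in the first table, 14 in the second): 16 of 30 in the quadruple mutant, 9 of 18 in pdp1/2/3, 1 of 4 in rrm1 (MYB29), 1 of 2 in fve (MAM3) and 0 of 1 in suvh2/9. No call changed direction. With no filter, calls numbered 1 in place of 2 in fve, 0 in place of 1 in suvh2/9, 2 in place of 4 in rrm1, 1 in place of 3 between fve and suvh2/9, 4 in place of 8 between the quadruple mutant and pdp1/2/3, and 0 in place of 1 for the interaction. With no trend they numbered 0 in suvh2/9, 2 in rrm1, 11 in place of 18 in pdp1/2/3, 1 between fve and suvh2/9, 3 between the quadruple mutant and pdp1/2/3, 11 in place of 19 between the quadruple mutant and rrm1, and 0 for the interaction. With only the groups compared in the fit, they numbered 9 in fve, 10 in rrm1, 1 between fve and suvh2/9 and 5 between the quadruple mutant and pdp1/2/3. Shares over all genes in these alternatives are not given here. Leaving out 1 library at a time gave 2 to 9 calls in fve, 0 to 2 in suvh2/9, 2 to 4 in rrm1, 9 to 18 in pdp1/2/3, 17 to 31 in the quadruple mutant, 1 to 6 between fve and suvh2/9, 4 to 11 between the quadruple mutant and pdp1/2/3, 5 to 27 between the quadruple mutant and rrm1, and 0 to 2 for the interaction. Where this left a group with 1 library, that library was assumed to vary like the other groups. Without both libraries that stood apart, 2 members were called between the quadruple mutant and pdp1/2/3, 4 between the quadruple mutant and rrm1, and 0 for the interaction. The cause of these changes was not tested.

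Replicate numbers carried no stated batch. Deviations of same-numbered libraries correlated at 0.0055 (fve and Col-0), 0.144 (suvh2/9 and Col-0), 0.197 (fve and suvh2/9), -0.0107 (quadruple mutant and pdp1/2/3), -0.0387 (quadruple mutant and rrm1) and -0.100 (rrm1 and pdp1/2/3). A replicate block gave 8 calls in fve, 2 in suvh2/9, 12 between fve and suvh2/9, 5 between the quadruple mutant and pdp1/2/3 and 15 between the quadruple mutant and rrm1. It could not be fitted for the mutants of the second table against Col-0, whose numbers are 3 and 4. Other scaling moved the all-gene median by at most 0.009 on the log2 scale. MYB76, MYB122 and MBP2 in every group, and CYP81F2 and MYB51 in the first table, stood under 10 CPM and rest on few counts, so small differences there could not be detected. Also under 10 CPM on average in the second table were CYP81F2 in Col-0 (3.47) and rrm1 (4.75) and MYB51 in Col-0 (9.18) and pdp1/2/3 (9.69). So was MBP1, in Col-0 of the first table (7.39), Col-0 of the second (6.27) and pdp1/2/3 (5.62).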
